A study of Canis rufus and Canis latrans with 56 samples.

Results

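The genes described here encode chaperones and disulphide isomerases of the endoplasmic reticulum, the compartment in which secreted and membrane proteins are folded. They are PDIA3, PDIA4, PDIA6, P4HB, HSPA5, HSP90B1, CALR, CANX, SDF2L1 and DNAJC3, chosen by name with earlier results of these data known. Each of these 10 genes has 1 probe on the array, so 10 of the 24354 probes, or 10 of 16121 named genes, are described. RNA came from whole blood of 1 coyote (animal 20288) and 13 red wolves (Canis rufus), an endangered canid of North America. Labelled RNA of every animal was put on 4 arrays, 56 in all, on 7 slides. Per the design text the coyote was a free-ranging female, and the wolves comprised 6 captive and 7 free-ranging animals. The status, sex and age of each wolf are not given in the labels used here, so no comparison by confinement was made. The blood was mixed with RNAlater, an RNA preservative, and was a mixture of cells, in which fewer cells of a type and less RNA per cell cannot be told apart.

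A protein entering the endoplasmic reticulum meets HSPA5 (BiP), an Hsp70 chaperone, and HSP90B1 (GRP94), an Hsp90 chaperone. Glycoproteins are held by the lectins calnexin (CANX) and calreticulin (CALR), which work with the isomerase PDIA3, while PDIA4, PDIA6 and P4HB form and rearrange disulphide bonds. Many of these genes are switched on together by the unfolded protein response when folding capacity is exceeded, and they are abundant in plasma cells, which secrete antibody.

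The arrays carry probes for human transcripts. Genes are named after these human probes. How well a canid transcript binds to one was not measured, so a difference in sequence under a probe and a difference in expression cannot be told apart. A level is a log2 intensity with the array mean at 0, adjusted for slide, so a difference of 1 is 2-fold. Arrays of the same animal are technical repeats from one labelled RNA, and n counts animals. Precision is limited by how many arrays there are. Background was bounded by 44 genes typical of liver or skeletal muscle, whose highest mean level was 0.396. PDIA3 and PDIA6 had mean levels over the 14 animals above it, at 0.83 and 0.71. SDF2L1 exceeded it in 3 of 14 animals. The other 7 probes were below it in every animal, so those probes give only an upper bound for their transcripts. These 7 include HSPA5, HSP90B1, CALR and CANX, and levels of different probes cannot be set against each other.

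The first question was which of the folding genes differed among the 13 wolves by more than the repeated arrays of an animal. PDIA3, PDIA6 and SDF2L1 did, and no other member passed. The test was limma's moderated F test of the animal terms with slide in the model, adjusted by Benjamini-Hochberg over all probes. At an adjusted p under 0.05, 3 of the 10 members passed, against 11.2% of all probes. Among probes above the background bound 78.1% passed, so a call for PDIA3 and PDIA6 is what most probes of that brightness gave. Among the other probes 5.02% passed, and of the 8 members there only SDF2L1 did. The median share of variance that lay between wolves was 0.193 for the 10 members, against 0.0693 for all probes and 0.538 for those above the bound.

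PDIA3 is the isomerase that forms disulphide bonds in glycoproteins bound to calnexin and calreticulin. Its level was lowest in wolf 11273 at 0.25, had a median of 0.71 and was highest in wolf 111080 at 1.52 (mean 0.77 ± 0.37 SD, n = 13 wolves). Wolf 11310 followed at 1.35, wolf 11270 at 1.07 and wolf 11206 at 0.90. The other 9 wolves lay between 0.25 and 0.76. Wolves 11273 and 11148 lay below the background bound, so the highest wolf was at least 2.17-fold above the lowest. The spread between wolves was 2.18 times the residual SD between arrays, 0.17 (limma adjusted p = 2.98e-13). The 4 arrays of wolf 111080 lay between 1.35 and 1.66 and those of wolf 11273 between 0.02 and 0.45, without overlap. In the middle of the order the animals were not separate. Wolves 11105, 10632 and 10537 stood at 0.76, 0.76 and 0.71, closer together than their repeated arrays.

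PDIA6 is an isomerase that acts with HSPA5 on unfolded proteins and also helps to switch off stress sensors of the compartment. Its level was lowest in wolf 11273 at 0.18, had a median of 0.58 and was highest in wolf 11206 at 1.46 (mean 0.68 ± 0.41 SD, n = 13 wolves). Wolves 11310 and 111080 stood at 1.20 and 1.08. The 4 arrays of wolf 11206 lay between 1.32 and 1.47, and no array of wolf 11273 exceeded 0.37. Of the 13 wolves, 9 lay above the background bound, and the highest was at least 2.10-fold above the lowest. The SD between wolves was 2.48 times that between arrays (limma adjusted p = 3.09e-16).

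SDF2L1 is a partner of the Hsp40 co-chaperones of HSPA5 and a known target of the unfolded protein response. It stood at 1.10 in wolf 11310 and 0.76 in wolf 11206. The other 11 wolves lay between 0.03 and 0.37, all below the background bound, and the median of the 13 was 0.30. The highest wolf was 1.63-fold above the bound, and so at least 1.63-fold above the lowest wolf. This probe was noisier than the others: the SD between wolves, 0.30, was 0.967 times that between arrays, 0.31 (limma adjusted p = 7.50e-05). The 4 arrays of wolf 11310 read 0.59, 1.87, 1.77 and 0.41. Those of wolf 11206 read 0.33, 1.58, 0.35 and 0.46, so its level rests on 1 array. Without wolf 11310 the call was lost (adjusted p = 0.0604), as it was without array 2 of every animal (adjusted p = 0.0551).

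**Figure D1:**
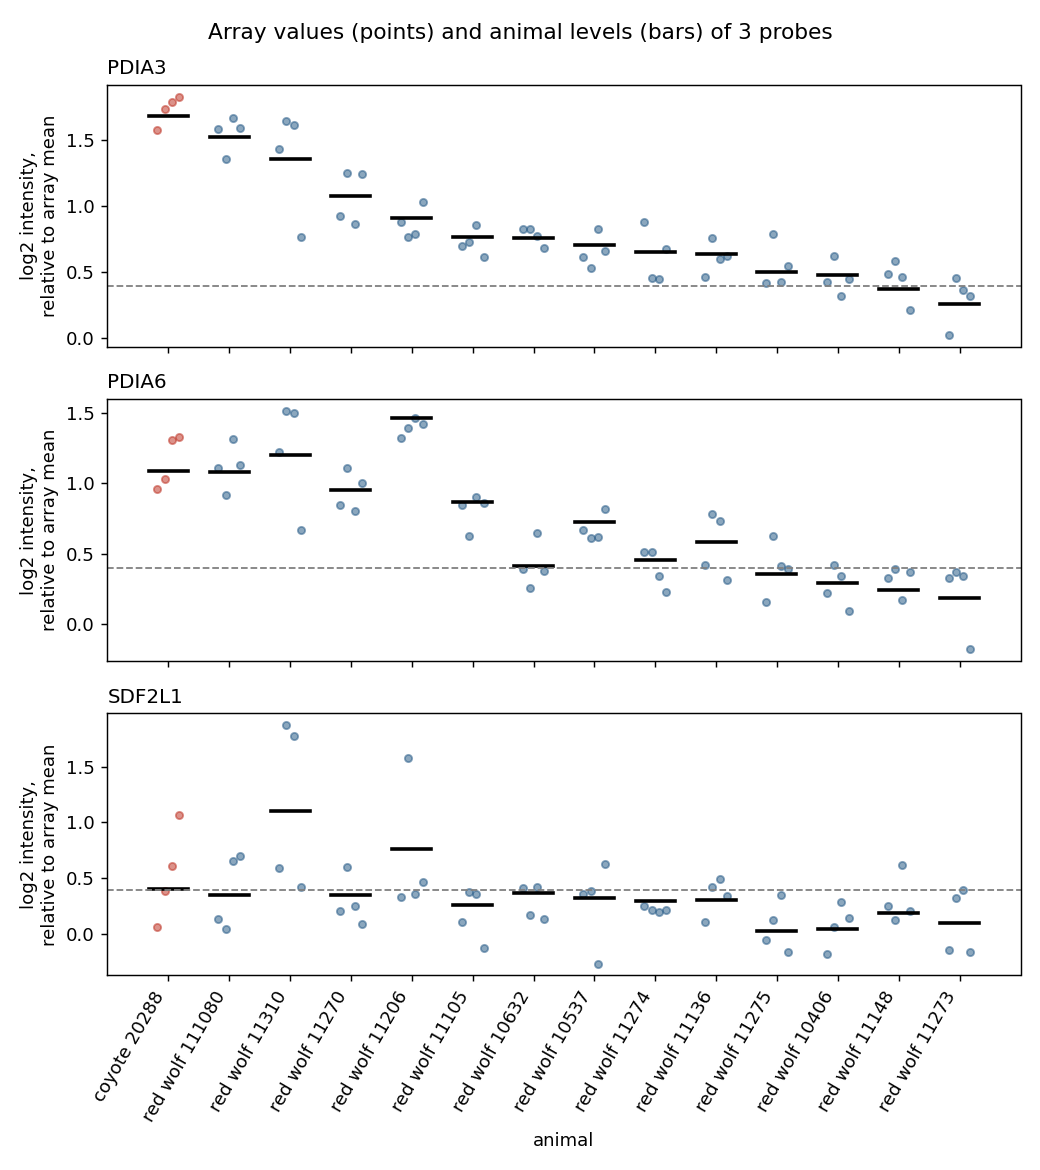
Log2 intensity of the PDIA3, PDIA6 and SDF2L1 probes on each array (points) and the slide-adjusted level of each animal (bars), with the coyote in red at the left and the 13 red wolves ordered by PDIA3. The dashed line is the background bound of 0.396. PDIA3 and PDIA6 are high in wolves 111080, 11310, 11270 and 11206 and low in wolf 11273, while SDF2L1 stands above the line in wolves 11310 and 11206.

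Wolves 111080, 11310 and 11136 each have 1 array whose description notes collection in the wild. Their PDIA3 levels were 1.52, 1.35 and 0.63, and because fewer wolves carry the note than were free-ranging, no group was made from it. In wolf 11310 the array on slide 32022 read low for all 3 genes, at 0.76 for PDIA3, where its other arrays read 1.43 to 1.64. It read 0.66 for PDIA6, where the others read 1.22 to 1.52. Without that array, a setting added after the values were seen, all 3 genes still passed (adjusted p = 2.26e-15, 7.24e-18 and 2.51e-06). Slide itself, with animal kept in the model, differed for PDIA6, CANX, SDF2L1 and DNAJC3 (limma adjusted p = 0.0227, 0.000456, 0.00162 and 0.0250). The share of all probes that differed by slide is not given here, so this is not read as particular to these genes. Slide was a term of the test among wolves.

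The 7 members below the background bound varied little. HSPA5, the chaperone that also holds the stress sensors inactive, ranged over the wolves from -0.54 in wolf 11273 to -0.10 in wolf 10632, with a median of -0.31. Its SD of 0.12 was 0.876 times that between arrays (limma adjusted p = 0.0739). CANX, the membrane-bound lectin chaperone, ranged from -0.40 to -0.05 (adjusted p = 0.203). CALR, its soluble counterpart, ranged from -0.01 in wolf 11136 to 0.34 in wolf 11148 (adjusted p = 0.441). These values overlap the noise of the arrays for all 3 genes.

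P4HB, the founding protein disulphide isomerase and a subunit of prolyl 4-hydroxylase, ranged from -0.37 to 0.07 (limma adjusted p = 0.295). PDIA4, an isomerase with an additional active site, ranged from -0.13 in wolf 11310 to 0.16 in wolf 11148 (adjusted p = 0.473). PDIA4 did not pass the test and was not measured above background, so its highest wolf is not read as a contrast with PDIA6. HSP90B1 ranged from -0.27 to 0.00 (adjusted p = 0.332), and DNAJC3, an Hsp40 co-chaperone of HSPA5, from -0.42 to -0.15 (adjusted p = 0.680). A range of this size below the bound does not show that the transcripts were alike in the animals.

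**Figure D2:**
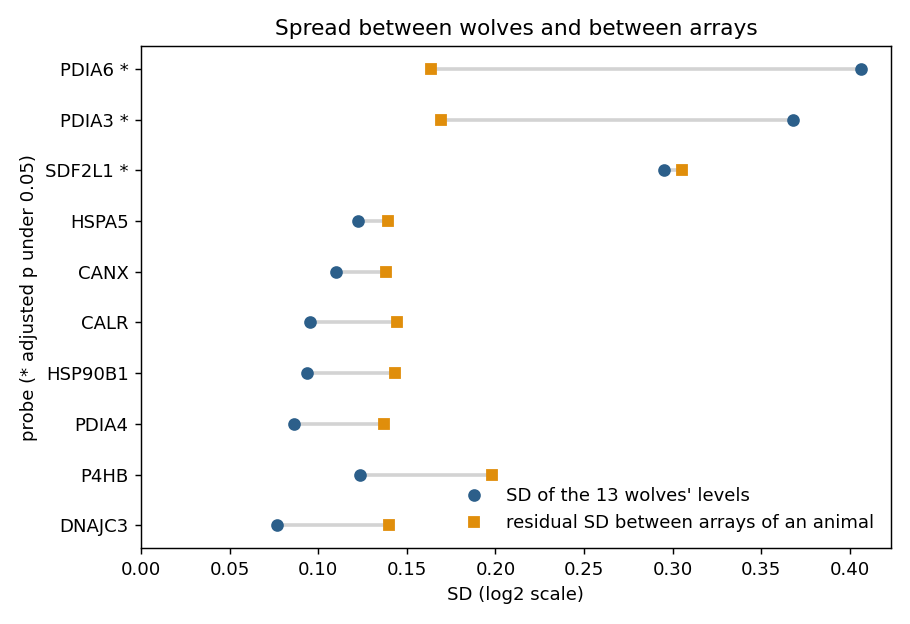
SD of the 13 wolves' levels (circles) and residual SD between arrays of an animal (squares) for each of the 10 probes, on the log2 scale; stars mark an adjusted p under 0.05. PDIA3 and PDIA6 are the probes whose spread between wolves exceeds that between arrays, and SDF2L1 has the widest array spread, 0.31. Circles are for levels that average 4 arrays and squares for single arrays, so a circle left of its square does not show that wolves were alike.

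A second question was whether members with linked roles went together over the wolves. For the 10 pairs chosen by role, such as HSPA5 with its co-chaperone DNAJC3 and CALR with PDIA3, Pearson's r over the 13 wolves lay between -0.47 (CANX with PDIA3) and 0.05 (CALR with CANX). None of the 10 pairs passed (permutation test with 1e+05 resamples, two-sided, adjusted p = 0.944 for every pair), and 0 had an unadjusted p under 0.05. For CANX with PDIA3, Spearman's rho was -0.41 (permutation p = 0.162, adjusted p = 0.629), and r was -0.21 without wolves 11275 and 11273. In 0 of the 10 pairs were both probes above the background bound, so this says little of the transcripts.

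PDIA3 and PDIA6 had similar orders of wolves, and SDF2L1 was highest in 11310 and 11206, wolves high for both. Wolves 111080 and 11270, also high for both, had SDF2L1 levels of 0.34 and 0.35, below the bound. The 3 pairs of these genes were picked after their values were seen, and their correlations are given with no p. PDIA6 with PDIA3 had r = 0.81 and rho = 0.92 over 13 wolves. Without wolves 111080 and 11310, the farthest from the PDIA3 median, r was 0.82. On single slides r ran between 0.55 and 0.99. SDF2L1 had r = 0.67 with PDIA3 and 0.79 with PDIA6 (rho 0.81 and 0.79), mostly over background values, since SDF2L1 lay above the bound in 2 of 13 wolves, in one of them through 1 array. Within slides these lay between 0.38 and 0.71 and between 0.46 and 0.94. Without the 2 farthest wolves they were 0.71 and 0.68.

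Such correlations were common on these arrays. Of the 1612 other probes that differed among wolves and lay above the background bound, 9.62% had an r with PDIA3 as high as that of PDIA6, and 29.7% as high as that of SDF2L1. The width of the signal also differed between animals. The SD over probes above the bound averaged 1.06, 1.04 and 1.04 on the arrays of wolves 111080, 11310 and 11206, against 0.97 and 0.91 for wolves 11273 and 11148. Of the wolves, 111080 had the widest arrays and also the highest PDIA3. Wolves 11105 and 11275 had arrays of 1.05 and 1.01, with PDIA3 levels of 0.76 and 0.50. Wolf 10632 had narrow ones, 0.90, with a PDIA3 level of 0.76. Wolf 11136 had the narrowest, 0.86. The part of this width in the levels was not tested. After each array was divided by its own spread, r between PDIA3 and PDIA6 was 0.77, and after quantile normalization 0.79.

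**Figure D3:**
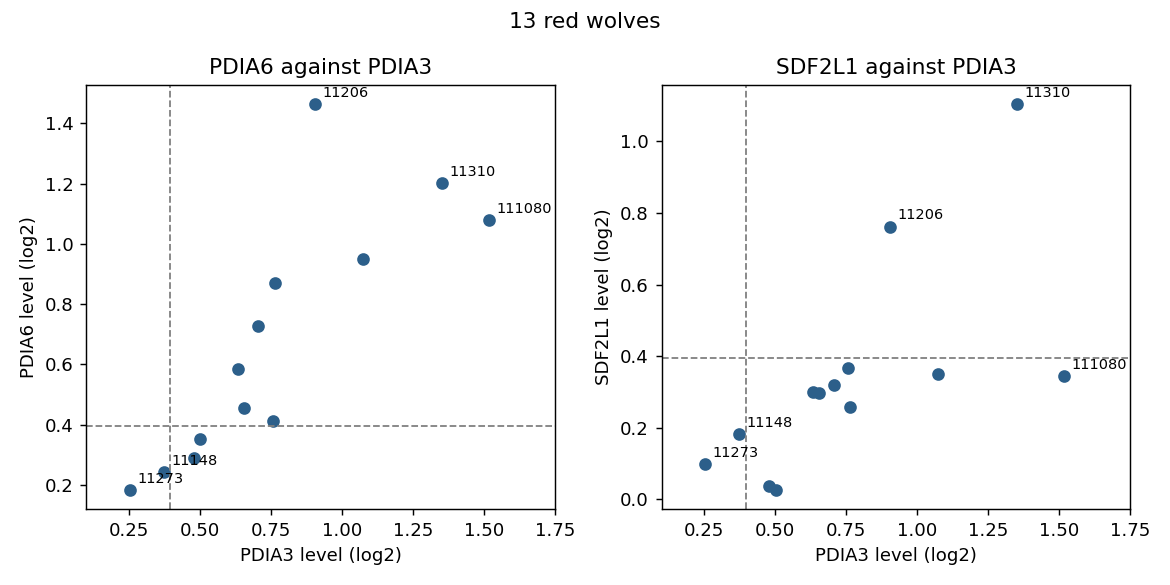
PDIA6 level (left) and SDF2L1 level (right) against PDIA3 level in the 13 red wolves, log2 scale; dashed lines mark the background bound of 0.396 and selected wolves are labelled. PDIA6 follows PDIA3 (r = 0.81), and wolf 11206 lies above the other points, while SDF2L1 leaves the low range in wolves 11310 and 11206.

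The named genes with the pattern most like PDIA3, among 1263 candidates above the bound that differed among wolves, were PA2G4, a growth-related RNA-binding protein gene (r = 0.94, rho = 0.95), AP3S1, a subunit of a vesicle coat adaptor (r = 0.91), and PIGK, the enzyme that attaches glycolipid anchors to proteins in the endoplasmic reticulum (r = 0.91). Those most like PDIA6 were SARNP, an RNA-binding protein of mRNA export (r = 0.98, rho = 0.97), ATF7IP, a chromatin regulator (r = 0.98), and RAB10, a GTPase of vesicle transport (r = 0.97). All values are over 13 wolves, and as the highest of many they carry no test.

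The members were then set beside 189 other measured genes of the endoplasmic reticulum in 9 lists, chosen with earlier results known. Of these, 33 (17.5%) differed among the wolves in limma's F test, against 11.2% of all probes. Above the background bound lay 25 of them, and 21 of those differed (84.0%, against 78.1% of all probes there). Of these 21 genes, 13 were highest in wolf 111080, 11206 or 11310 (61.9%, against 42.6% of the 1613 probes above the bound that differed). Wolf 11273 was lowest for 10 of the 21, as it was for PDIA3 and PDIA6, and for 19.9% of those 1613 probes. These 3 wolves were singled out after their PDIA3 and PDIA6 levels were seen, and the shares are a description. Counts of single lists, given next, are to be read beside 11.2% of all probes and 78.1% of those above the bound.

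Of 40 other folding and disulphide enzymes, 6 differed (15%, against 11.2% of all probes). FKBP11, a prolyl isomerase abundant in secretory cells, stood at 2.08 in wolf 11310, 1.88 in wolf 11206 and 0.59 in wolf 11273 (SD 0.51, n = 13 wolves). Wolf 11270 was second for FKBP11, at 0.71 above the mean of the wolves, with wolf 11206 at 0.69 above it. DNAJB11, the co-chaperone that binds SDF2L1, ranged from 0.07 in wolf 11136 to 0.85 in wolf 11206. SDF2, the paralogue of SDF2L1, stood at 1.14 in wolf 111080 (highest) and 0.40 in wolf 11273 (lowest). FKBP2, another prolyl isomerase, went the other way, with 0.63 in wolf 11310 and 1.34 in wolf 11275. MANF, a secreted target of the unfolded protein response named here after its values were seen, exceeded the background bound only in wolf 11310, at 0.45.

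In the steps before folding, RPN2 and DAD1, subunits of the oligosaccharyl transferase that adds glycans to entering proteins, spanned 3.91- and 1.79-fold over the wolves. RPN2 stood at 3.18 in wolf 11206 (highest) and DAD1 at 2.51 in wolf 111080 (highest). Wolf 11273 had the lowest levels of both, 1.21 and 1.67. In all 4 of 11 measured genes of that list differed (36.4%, against 11.2% of all probes). The others were OSTC and TUSC3, of which TUSC3 lay below the bound in every wolf. Of 25 genes of entry into the compartment 4 differed (16%). SRP54, which recognises signal peptides, stood at 1.37 in wolf 11206 and 0.18 in wolf 11273. The signal peptidase subunits SPCS1 and SPCS3 were highest in wolves 10537 and 11310, at 3.28 and 0.76. SRPRB, a subunit of the receptor that docks the ribosome, was lowest in wolf 11310 at 0.46.

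In degradation of misfolded proteins 5 of 25 genes differed (20%, against 11.2% of all probes). SELENOS, which helps to pull proteins out of the membrane, had an SD of 0.81 and stood at 3.11 in wolf 11105 and 0.94 in wolf 11273. VCP, the ATPase that does the pulling, stood at 1.55 in wolf 111080 and 0.13 in wolf 11273. FAF2, a VCP adaptor, was highest in wolf 11270 at 0.98. UBE2J2, a ubiquitin-conjugating enzyme, stood at 2.04 in wolf 11273, its highest level, and 0.87 in wolf 11136. Of 14 glycan trimming genes 3 differed (21.4%), namely MAN1A2, UGGT2 and EDEM3. UGGT2, related to the enzyme that re-glucosylates misfolded glycoproteins, was lowest in wolf 11310 at 0.23.

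Of 27 genes of the unfolded protein response 5 differed (18.5%, against 11.2% of all probes). Above the background bound lay 3 of the 27, and all 3 differed, as 78.1% of probes there did. PPP1R15A, which restores translation after stress, stood at 1.22 in wolf 11310, the wolf with the highest SDF2L1, and at -0.09 in wolf 11136. ATF4, the transcription factor of the translational arm, ranged from 0.16 in wolf 11136 to 1.14 in wolf 11206. CEBPB, placed in the list as a partner of that arm and also a general myeloid factor, was highest in wolf 11310 at 6.65. NFE2L2 exceeded the bound in 1 wolf. The probes of XBP1, ATF6, DDIT3 and HERPUD1, central genes of the response named after their values were seen, were below the bound in every wolf (adjusted p = 0.610, 0.483, 0.287 and 0.360).

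Of 22 genes of export and return 3 differed (13.6%, against 11.2% of all probes). COPB2, a coat protein of vesicles that carry escaped chaperones back, stood at 1.72 in wolf 111080 and 0.30 in wolf 11273. SEC31A, of the coat of outgoing vesicles, was highest in wolf 11206 at 0.67. KDELR1, the receptor that retrieves chaperones, exceeded the bound in 4 wolves and reached 0.48 in wolf 111080. In calcium handling 1 of 14 genes differed (7.14%), namely CALU, a calcium-binding protein of the secretory pathway. CALU stood at 2.18 in wolf 11206 and 0.58 in wolf 11273. PDIA3 and CALR also serve the loading of peptides onto class I molecules. Of the 11 other genes of that step 2 differed (18.2%). B2M, the class I light chain, was lowest in wolf 11136 at 0.19 and stood at 0.23 in wolf 11310, while ERAP1, a peptide-trimming enzyme, was highest in wolf 10406 at 0.47.

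**Figure D4:**
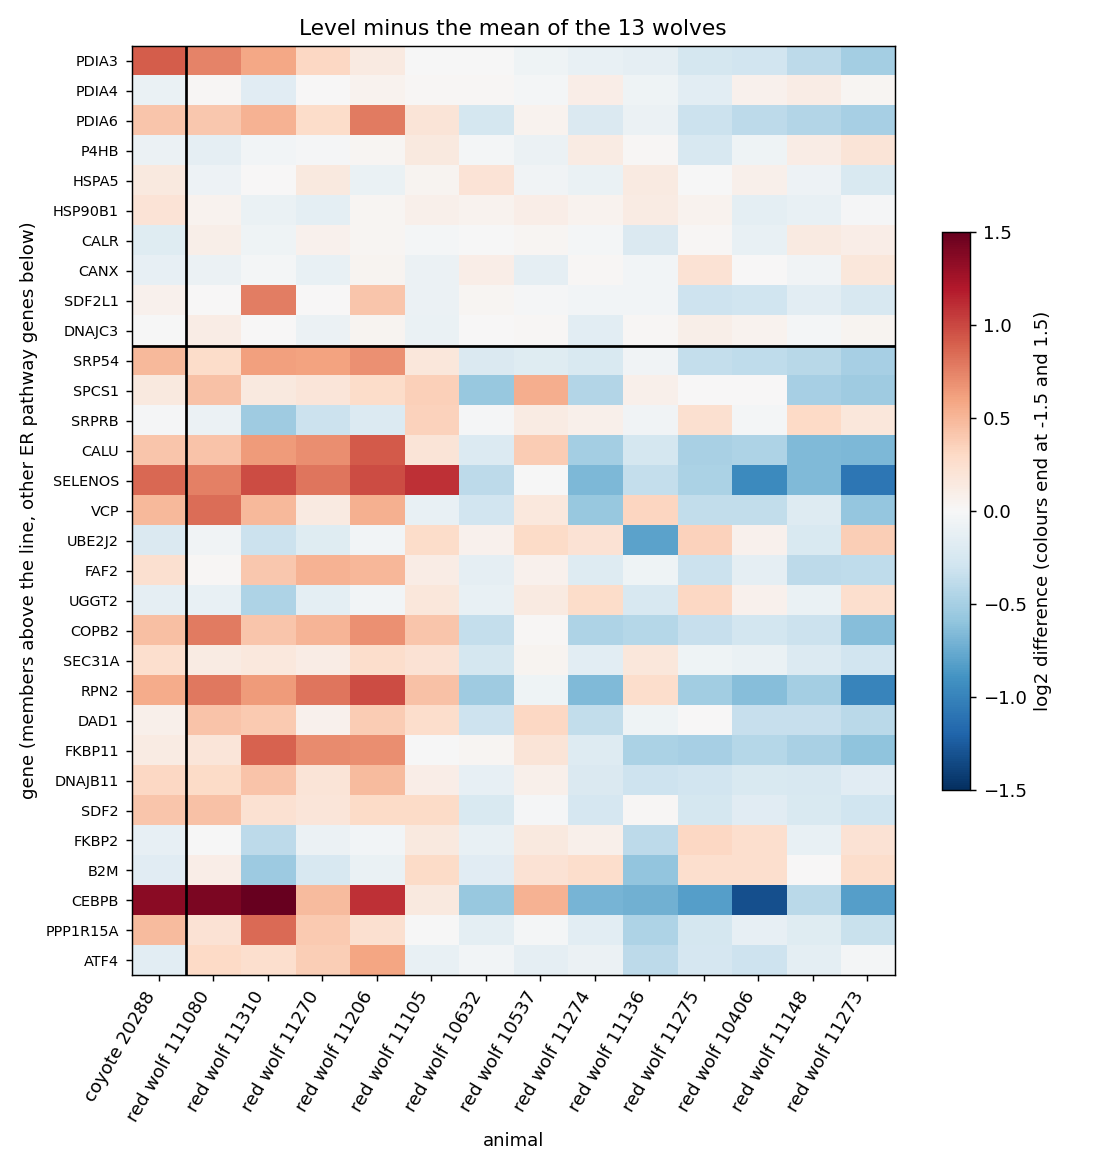
Level minus the mean of the 13 wolves (log2) for the 10 members (above the line) and the 21 other endoplasmic reticulum genes above the background bound that differed among wolves, with the coyote at the left and wolves ordered by PDIA3. The deepest colours also stand for larger differences. Among the members only PDIA3, PDIA6 and SDF2L1 show strong colour, and many of the other genes share their order of wolves, with SRPRB, UBE2J2, UGGT2, FKBP2 and B2M among those that do not.

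Cytosolic and mitochondrial chaperones differed in 7 of 29 measured genes (24.1%, against 11.2% of all probes), and 5 of the 7 lay above the background bound, where 78.1% of probes differed. Their median share of variance was 0.120, against 0.193 for the members and 0.0693 for all probes. Of these, DNAJA2 stood at 2.32 in wolf 11206 and 0.76 in wolf 11273, the wolves in which PDIA6 was highest and lowest. HSPH1, a co-chaperone of Hsp70, stood at 0.82 in wolf 11310 and 2.64 in wolf 11273. The difference between the lists was not tested.

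Markers of blood cells other than red cells differed among the wolves in 0 to 3 genes a list. Plasma cell markers lay below the background bound in mean level for 9 of 9 measured genes, and 2 of the 9 differed in limma's F test, against 11.2% of all probes. Their mean level ran from -0.07 to 0.02 over the wolves, highest in wolf 11310. TNFRSF17, a plasma cell receptor, reached 0.74 in that wolf, and the list mean there was above 0 only through this marker. B cell markers were below the bound for 11 of 11 genes, of which 0 differed, with means of -0.09 to 0.00. Monocyte markers were above it for 2 of 13 and differed for 2, and their mean level, below the bound in every wolf, ran from -0.10 in wolf 11273 to 0.02 in wolf 11310. Red cell markers were above it for 7 of 15 and differed for 6, with a mean level of 0.57 in wolf 11310 and up to 1.02 in wolf 11105. Neutrophil, T cell, NK cell, platelet, and eosinophil and basophil markers were above it for 1 of 16, 3 of 17, 2 of 13, 1 of 12 and 2 of 8 genes, and 2, 2, 3, 2 and 1 of the measured genes differed. The part of the cell mixture in the levels of PDIA3, PDIA6 and SDF2L1 was not tested.

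The last question was how the coyote stood relative to the red wolves. PDIA3 stood at 1.68 in the coyote, against 0.25 (lowest), 0.71 (median) and 1.52 (highest) in the wolves, so the coyote lay above all 13. The difference was 0.91 on the log2 scale (SE 0.30, 95% interval 0.30 to 1.52), or 1.88-fold, and on the 4 slides that held the coyote it was 0.68 to 1.12. It did not pass limma's test on 1 value per animal (adjusted p = 0.998, unadjusted p = 0.00489). The 4 arrays of the coyote read 1.57 to 1.82, which overlaps the arrays of wolves 111080 and 11310. Across all probes 1 of 24354 passed (0.00411%), and 3.74% had an unadjusted p under 0.05. The 1 probe that passed was of a monocyte marker and was higher in the coyote. Monocyte markers had a mean level of 0.15 in the coyote, against -0.10 to 0.02 in the wolves, all below the background bound. The part of the cell mixture in the coyote's PDIA3 level was not tested. The coyote exceeded every wolf for 5.76% of all probes and 2.76% of those above the background bound. With 1 coyote, its own spread is assumed to equal that of the wolves.

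PDIA6 stood at 1.09 in the coyote, against 0.18 (lowest), 0.58 (median) and 1.46 (highest) in the wolves, of which 2 lay above it. The difference was 0.41 (SE 0.31, 95% interval -0.23 to 1.05, limma adjusted p = 0.998). SDF2L1 stood at 0.40 in the coyote, 0.01 above the background bound, against 0.34 ± 0.30 in the wolves (SD, n = 13). Its difference of 0.06 turned negative in 3 of 31 other settings. Of the 10 members 0 passed the test, and PDIA3 and HSP90B1 were above every wolf. None lay below every wolf, as 6.4% of all probes did. HSP90B1 stood at 0.08 in the coyote, against -0.27 to 0.00 in the wolves (unadjusted p = 0.0303, limma adjusted p = 0.998), below the background bound in all 14 animals.

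For the other members the coyote lay within the range of the wolves and below the bound. CALR stood at 0.02 in the coyote, lower than in 12 of 13 wolves, and CANX at -0.38, also lower than in 12. HSPA5 stood at -0.16, P4HB at -0.22, PDIA4 at -0.05 and DNAJC3 at -0.27. No fold is given for these 7 genes, since neither species was above background. None of the 189 other endoplasmic reticulum genes passed in the coyote comparison (0 in limma's test). As examples named without a rule, RPN2 stood at 2.75 in the coyote, against 2.20 ± 0.68 in 13 wolves (SD), and VCP at 1.20, against 0.71 ± 0.45. Others were lower in the coyote, among them UBE2J2 at 1.45, against 1.67 ± 0.33, and B2M at 0.61, against 0.79 ± 0.31.

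**Figure D5:**
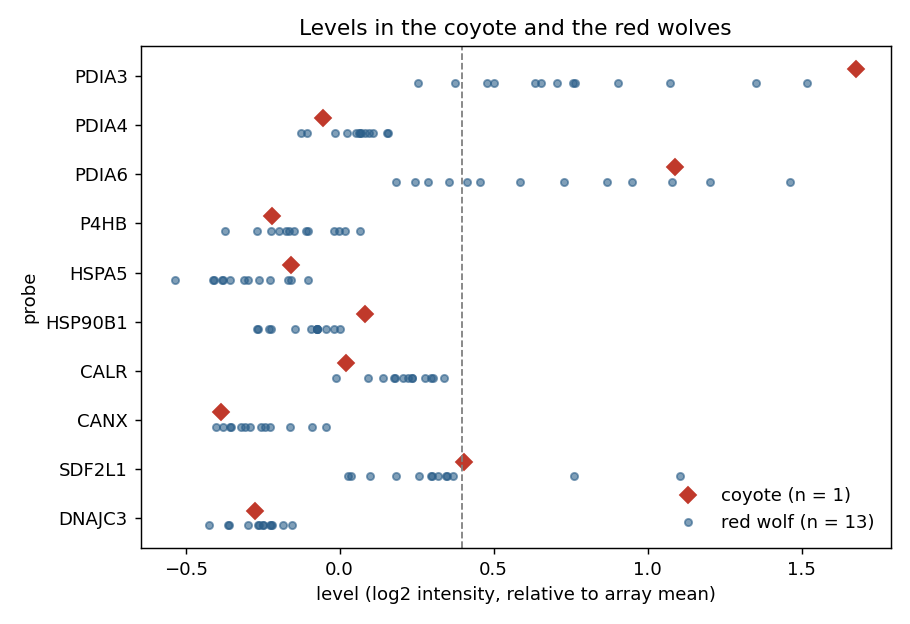
Level of each of the 10 probes in the coyote (red diamonds) and in each of the 13 red wolves (blue circles), in log2 intensity relative to the array mean; the dashed line is the background bound of 0.396. For PDIA3 and HSP90B1 the coyote lies above all wolves, and for PDIA3 it does so above the bound.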

How the data were processed

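RNA from whole blood of 14 animals was measured on human Illumina bead arrays. Per the submitters' processing notes, signals were read with BeadStudio 1.5.0.34. The deposited values are log2 intensities, centred by the authors on the median per the labels' design text. In the table the mean of each array is 0 and the medians lie between -0.167 and -0.0325. Whether background was subtracted is not given here, and no detection p-values were used. The probe annotation names 18339 of 24354 probes.

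From these values, limma 3.58.1 in R 4.3.3 (eBayes with an intensity trend) tested animals among 52 wolf arrays (animal and slide as terms, 33 residual degrees of freedom), and the coyote against the wolves on 1 slide-adjusted value per animal. For a gene with several probes the brightest was used. Of the genes behind the background bound, ACTA1 and RYR1 themselves differed among wolves. P-values among wolves set differences between labelled RNAs against the noise of repeated arrays. With 1 labelled RNA per animal, they do not cover variation from labelling again. In each list up to 4 genes past the test were named by their SD over wolves, unless said otherwise. The procedures were tested on simulated data. Members and lists were chosen with earlier results of these data known. Probe and protein sequences were not used here. Alternatives were scaling, centring, filtering, slide terms, and leaving out wolves, slides or arrays.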

Additional observations from a re-analysis of the deposited data

Results flagged for a closer look

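Of 140 sets of 4 arrays (10 probes in 14 animals), 9 held an array far from the other 3 of its animal, where chance alone flags about 1 in 20 sets, or 7. For SDF2L1 in wolf 11206 an array read 1.58, the others 0.33 to 0.46. Without it SDF2L1 still passed the test among wolves (limma adjusted p = 0.000128). For PDIA6 in wolf 11273 an array read -0.182, the others 0.33 to 0.37. Without it PDIA6 still passed, as did PDIA3 and SDF2L1.

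The other flagged arrays were of members below the background bound. For HSPA5 an array of the coyote read -0.474, the others -0.12 to -0.09, and one of wolf 111080 read -0.642, the others -0.37 to -0.32. CALR read 0.48 on an array of wolf 10537 (others 0.09 to 0.14) and 0.158 on one of wolf 11310 (others 0.12 to 0.13). CANX read 0.276 on an array of wolf 11273, where the others read -0.35 to -0.24. PDIA4 read 0.156 on an array of wolf 11136 (others -0.03 to 0.00), and HSP90B1 read -0.321 on one of wolf 10406 (others -0.20 to -0.19).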

How the results depend on the processing

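Among the wolves 3 of 10 members passed, and between 2 and 4 did in the 37 other settings. PDIA3 and PDIA6 passed in all 37. SDF2L1 lost its call without wolf 11310 and without array 2 of each animal, and was not tested when dim probes were left out. P4HB passed without slide 32021 (adjusted p = 0.0396) and HSPA5 without the array of wolf 11206 on slide 32013 (0.0493), a setting added after the values were seen. Over all probes 2732 differed, 1790 of 2064 when only bright probes were tested, fewer being tested, and 1629 without array 3 of each animal. The other endoplasmic reticulum genes that differed numbered 33, between 22 (only bright probes, 25 tested) and 36. For the coyote 0 members passed in all 32 other settings, and the PDIA3 difference lay between 0.79 and 0.98. The PDIA3 difference was 0.79 after each array was divided by its own spread and 0.98 without wolf 11310, against 0.91 without these changes. The SD over probes above the bound averaged 1.07 on the coyote's arrays, against 1.06 for wolf 111080, the widest of the wolves. The part of this width in the coyote's PDIA3 difference was not tested. The SDF2L1 difference, 0.06, was 0.194 with no slide term. With a wolf, a slide or 1 array per animal left out it lay between -0.0909 (without slide 32021) and 0.156 (without wolf 11310). It was -0.04 without array 3 of each animal and -0.08 without array 4, and the cause was not tested. The 10 pairs had 0 calls in every setting, and could not be computed with only bright probes. Arrays were not paired by replicate number across animals, since the labels give no such number. Animals shared slides, and slide was a term of the test among wolves. Most members lie below the background bound, which limits what the arrays show of them.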
